A study of Arabidopsis thaliana with 12 samples.

Results

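SPT (SPATULA, AT4G36930), a bHLH transcription factor, and EIN3 (ETHYLENE-INSENSITIVE3, AT3G20770), the main transcription factor of ethylene signalling, were followed in imbibed seeds of Arabidopsis thaliana. Each gene was found by its symbol in the supplied probe set annotation and had 1 probe set, so the members are 2 of the 13356 genes with a probe set of their own. On 12 arrays, 4 groups of 3 biological replicates were compared, named here pil5 red, pil5 dark, Col-0 red and Col-0 dark. The pil5 seeds carried the insertion allele Salk_072677 of the bHLH gene PIL5, the single mutant line of the study, and Col-0 was the wild type. All seeds received far-red light at 3.2 umol per square metre and second for 5 min, the red groups then received red light at 13 umol per square metre and second for 5 min, and all were kept in darkness for 12 h before RNA was extracted. In the groups named dark, then, far-red light came last, and no group went without it.

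PIL5, also called PIF1, represses seed germination in the dark, and phytochrome activated by red light binds it and leads to its removal. SPT is a regulator of germination in seeds that also responds to light and temperature, and it shapes the carpel margin in flowers. EIN3 is controlled chiefly at the level of the protein: without ethylene the F-box proteins EBF1 and EBF2 mark it for destruction, and with ethylene EIN2 signalling stabilises it. Ethylene promotes germination and counters abscisic acid in seeds of many species. An array measures transcripts only, so none of the values below shows the amount of either protein.

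Values are log2 signals as deposited, on which a difference of 1 is a doubling. Array medians lay between 6.081 and 6.278, and arrays of a group correlated at r between 0.968 and 0.997. The third pair of pil5 arrays stood apart: 958 probe sets differed at least 2-fold between pil5 red 3 and pil5 dark 3, against 1 and 0 in replicates 1 and 2. The annotation gave PIL5 no probe set (0), so the mutated gene was not checked here. None of 18 marker genes of seed storage, leaf and endosperm had a probe set of its own, and the labelled tissue could not be checked on them. All tests come from limma fitted to 12 arrays and 22746 probe sets, with Benjamini-Hochberg adjustment, a threshold of 0.05 and n = 3 arrays per group. Where groups are said not to overlap, this describes the 3 arrays of each group. The share of all probe sets whose groups did not overlap is not given here, so non-overlap is no test. In whole seeds, fewer cells of a type and less RNA per cell cannot be told apart.

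SPT was highest in wild-type seeds that had received the red pulse. It read 8.38, 8.21 and 7.39 in Col-0 red, against 7.22, 6.66 and 6.87 in Col-0 dark. Every Col-0 red array lay above every Col-0 dark array, although the third Col-0 red array was only 0.52 above its partner of the same number, against 1.16 and 1.55 in replicates 1 and 2. The means were 7.99 ± 0.53 in Col-0 red and 6.91 ± 0.28 in Col-0 dark (SD, n = 3), and SPT rose by 1.08 on the log2 scale, or 2.11-fold (SE 0.29, adjusted p = 0.03, limma).

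**Figure D1:**
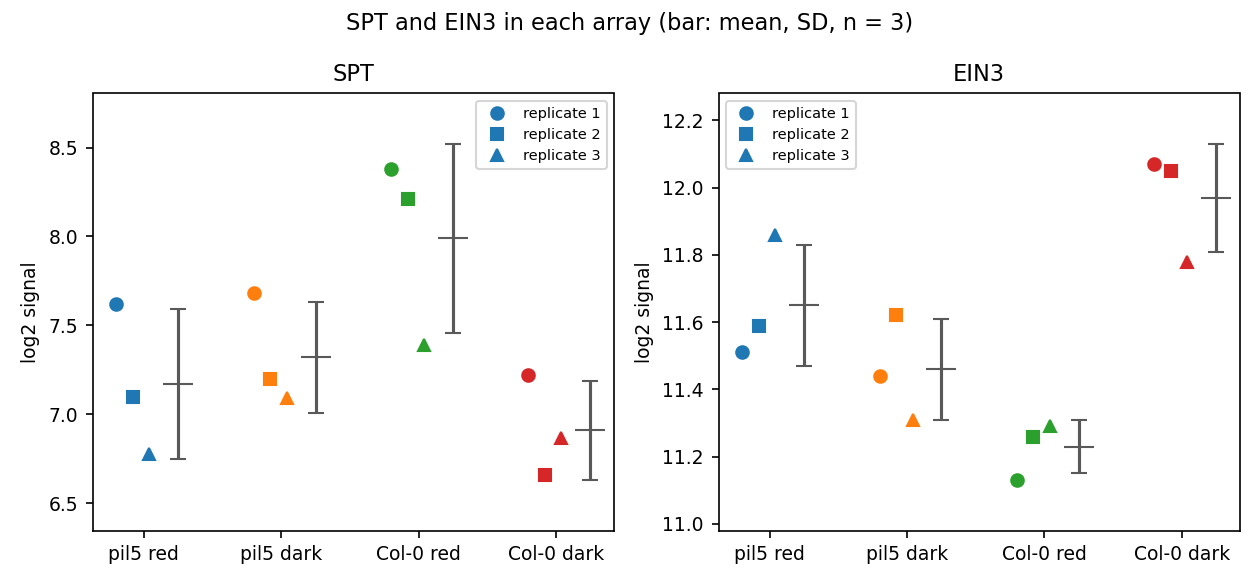
Log2 signal of SPT (left panel) and EIN3 (right panel) in each of the 12 arrays by group, with the symbol giving the replicate number and the grey bar the group mean and SD (n = 3). SPT is highest in Col-0 red (mean 7.99) and lowest in Col-0 dark (mean 6.91), while EIN3 is highest in Col-0 dark (mean 11.97) and lowest in Col-0 red (mean 11.23).

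The call for SPT in this comparison was close to the threshold. It ended when Col-0 red 1 was left out (log2 change 0.88, adjusted p = 0.12), or likewise Col-0 dark 2 (0.95, adjusted p = 0.12), Col-0 red 2 (0.97, adjusted p = 0.1) or Col-0 dark 3 (1.06, adjusted p = 0.068), and it held without any of the other 8 arrays. EIN3 was called as well, in the opposite direction, so both genes passed where 15.1% of all probe sets did.

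In pil5 seeds the red pulse gave no called change of SPT. SPT read 7.62, 7.10 and 6.78 in pil5 red, against 7.68, 7.20 and 7.09 in pil5 dark. The 2 groups overlapped, and each red array lay slightly below the dark array of its number, by 0.06, 0.10 and 0.31. The log2 change was -0.16 (SE 0.29, 95% interval -0.80 to 0.48, adjusted p = 1, limma), and it was 0.03 without the third pil5 red array and 0.02 without the first pil5 dark array. No probe set at all was called here (0%, limma). Of the 22746 tested, 267 had an unadjusted p below 0.05, which is a share below 0.05.

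Between genotypes, SPT was called in neither light condition when only the groups were fitted. Where far-red was the last light it averaged 7.32 ± 0.31 in pil5 dark and 6.91 ± 0.28 in Col-0 dark (SD, n = 3). This difference of 0.41 (SE 0.29, 95% interval -0.23 to 1.05, adjusted p = 0.46, limma) had the same sign in all 3 replicates, with overlapping groups. After red it averaged 7.17 ± 0.42 in pil5 red and 7.99 ± 0.53 in Col-0 red. This difference of -0.83 (SE 0.29, 95% interval -1.47 to -0.19) did not pass (adjusted p = 0.28, limma), where 0.193% of probe sets passed. SPT was lower in pil5 in all 3 replicates, by 0.76, 1.11 and 0.61.

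SPT also varied with the replicate number. All 4 arrays numbered 1 lay above the mean of their own group, by 0.38 on average, and all 4 numbered 3 lay below it, by 0.32 on average. Arrays with the same number varied together across the whole table as well. When the number entered the fit as a block, the standard error for SPT was 0.16 in place of 0.29. In that fit the lower SPT in pil5 red than in Col-0 red passed (adjusted p = 0.014, where 8.27% of probe sets passed, against 0.193% without the block), and so did the difference between pil5 dark and Col-0 red (-0.67, adjusted p = 0.032, where 7.73% of probe sets passed, against adjusted p = 0.41 and 0.448% without the block). The first of these calls ended without Col-0 red 1 (adjusted p = 0.065) or Col-0 red 2 (0.062). The second passed without 5 of the 12 arrays and missed without any of the other 7 (adjusted p up to 0.14).

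In every replicate the red effect on SPT was lower in pil5 than in Col-0. The red effect in pil5 minus that in Col-0 was -1.23, -1.65 and -0.83 in replicates 1, 2 and 3. Its mean of -1.24 had an SE of 0.41 and adjusted p = 0.1 in the fit of groups only, where 6.34% of probe sets passed. With the block the SE was 0.22 and adjusted p = 0.0083, where 17.5% of probe sets passed, and this call held without any 1 of the 12 arrays (adjusted p from 0.0028 to 0.033).

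**Figure D2:**
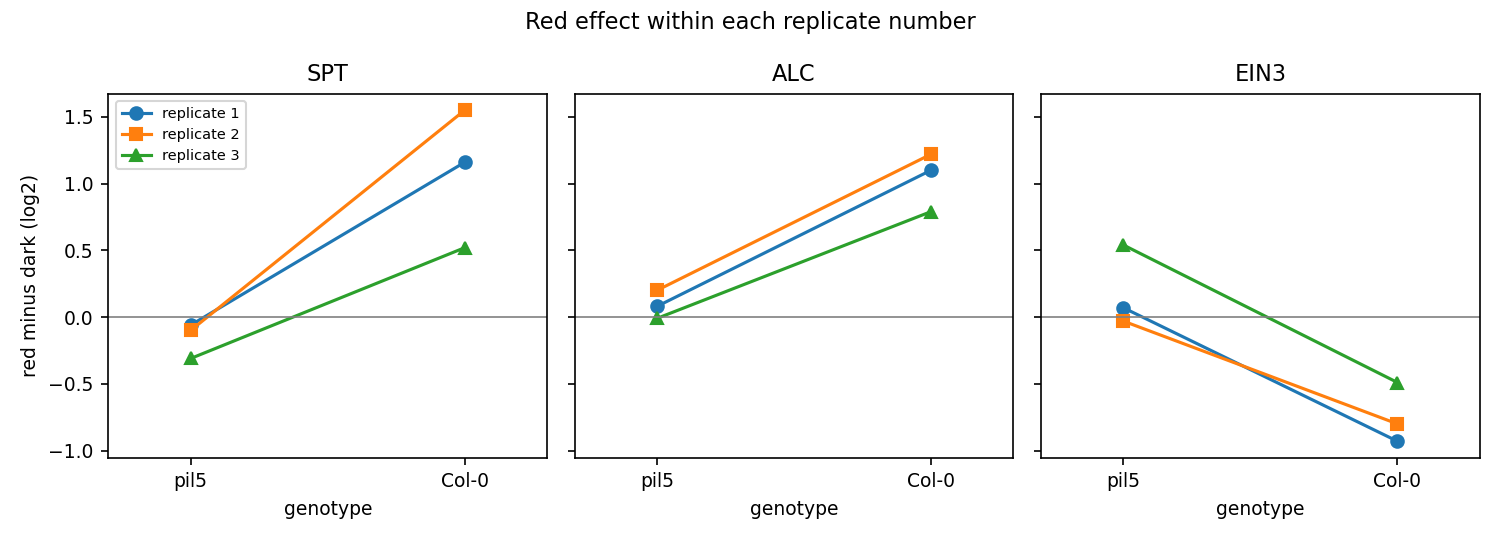
Red minus dark log2 difference within each replicate number, for pil5 (left of each panel) and Col-0 (right), for SPT, its relative ALC and EIN3. The lines join the same number. For SPT and ALC the Col-0 value lies above the pil5 value in all 3 replicates, and for EIN3 it lies below.

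In descending order the SPT means were 7.99 in Col-0 red, 7.32 in pil5 dark, 7.17 in pil5 red and 6.91 in Col-0 dark. Of the neighbours in this order, pil5 dark and Col-0 red did not differ in the fit of groups only. They differed with the block, as given above, and with array weights. The pil5 red and pil5 dark groups, and the pil5 red and Col-0 dark groups (difference 0.25, SE 0.29, 95% interval -0.39 to 0.89, adjusted p = 0.73, where 6.66% of probe sets passed), did not differ beyond their spread. SPT lay above the median of every array.

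EIN3 showed the opposite order with a smaller spread. Its signal lay above the upper quartile of every array, and the 12 values spanned 0.93 on the log2 scale, against 1.73 for SPT. EIN3 read 11.13, 11.26 and 11.29 in Col-0 red, against 12.07, 12.05 and 11.78 in Col-0 dark. The groups did not overlap, and the Col-0 red arrays lay close together.

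EIN3 fell by 0.74 on the log2 scale after red in Col-0, or 1.67-fold (SE 0.12, adjusted p = 0.0039, limma). The means were 11.23 ± 0.08 in Col-0 red and 11.97 ± 0.16 in Col-0 dark (SD, n = 3). By replicate the differences were -0.93, -0.80 and -0.49. This call held without any 1 of the 12 arrays, with log2 changes between -0.83 and -0.69 and adjusted p up to 0.024.

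EIN3 was lower in pil5 than in Col-0 where seeds received far-red alone. EIN3 read 11.44, 11.62 and 11.31 in pil5 dark, against 12.07, 12.05 and 11.78 in Col-0 dark, and every pil5 array lay below every Col-0 array. EIN3 fell by 0.51, or 1.42-fold (SE 0.12, adjusted p = 0.024, limma), where 12.1% of probe sets passed. The means were 11.46 ± 0.15 in pil5 dark and 11.97 ± 0.16 in Col-0 dark (SD, n = 3). This call ended without Col-0 dark 1 (-0.46, adjusted p = 0.098), pil5 dark 1 (-0.50, adjusted p = 0.066), Col-0 dark 2 (-0.46, adjusted p = 0.1) or pil5 dark 3 (-0.44, adjusted p = 0.085). With the block it held in the full set (adjusted p = 0.015, where 23.8% of probe sets passed) and ended without Col-0 dark 1, Col-0 dark 2 or pil5 dark 3 (adjusted p up to 0.084).

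The fall after red in Col-0 and the fall in pil5 in the dark share the 3 Col-0 dark arrays. Side by side, EIN3 had -0.74 in the comparison of red with dark and -0.51 in that of pil5 with Col-0, and SPT had 1.08 and 0.41. The direct comparison of the arrays that are not shared, pil5 dark with Col-0 red, gave EIN3 a difference of 0.23 (SE 0.12, 95% interval -0.04 to 0.50, adjusted p = 0.55, limma). All pil5 dark arrays lay above all Col-0 red arrays, the lowest of them at 11.31 and the highest Col-0 red array at 11.29.

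In pil5 the red pulse gave no called change of EIN3. It read 11.51, 11.59 and 11.86 in pil5 red, against 11.44, 11.62 and 11.31 in pil5 dark. The log2 change was 0.19 (SE 0.12, 95% interval -0.08 to 0.47, adjusted p = 1, limma), with differences of 0.07, -0.03 and 0.54 in replicates 1, 2 and 3. The third pil5 red array, from the pair that stood apart across the table, was the highest of its group, and without it the change was 0.09.

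After red, EIN3 averaged 11.65 ± 0.18 in pil5 red and 11.23 ± 0.08 in Col-0 red (SD, n = 3). The groups did not overlap, and pil5 was higher in all 3 replicates, by 0.38, 0.33 and 0.57. The difference of 0.42 (SE 0.12) did not pass (adjusted p = 0.19, limma), and it did not pass with the block either (adjusted p = 0.067). Against Col-0 dark, EIN3 in pil5 red differed by -0.32 (SE 0.12, adjusted p = 0.17, limma), and without the third pil5 red array this difference was -0.42 and passed (adjusted p = 0.046).

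The red effect on EIN3 differed between the genotypes. The red effect in pil5 minus that in Col-0 was 0.93 (SE 0.17, adjusted p = 0.02, limma), where 6.34% of probe sets passed. It was 1.0, 0.77 and 1.03 in replicates 1, 2 and 3. The call ended without Col-0 dark 1 (0.88, adjusted p = 0.054), Col-0 red 1 (0.89, adjusted p = 0.064), pil5 dark 1 (0.92, adjusted p = 0.052) or Col-0 dark 2 (0.89, adjusted p = 0.066). With the block it held without any 1 array (adjusted p from 0.0038 to 0.035). In descending order the EIN3 means were 11.97 in Col-0 dark, 11.65 in pil5 red, 11.46 in pil5 dark and 11.23 in Col-0 red. No neighbours in this order passed in the fit of groups only or with the block.

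**Figure D3:**
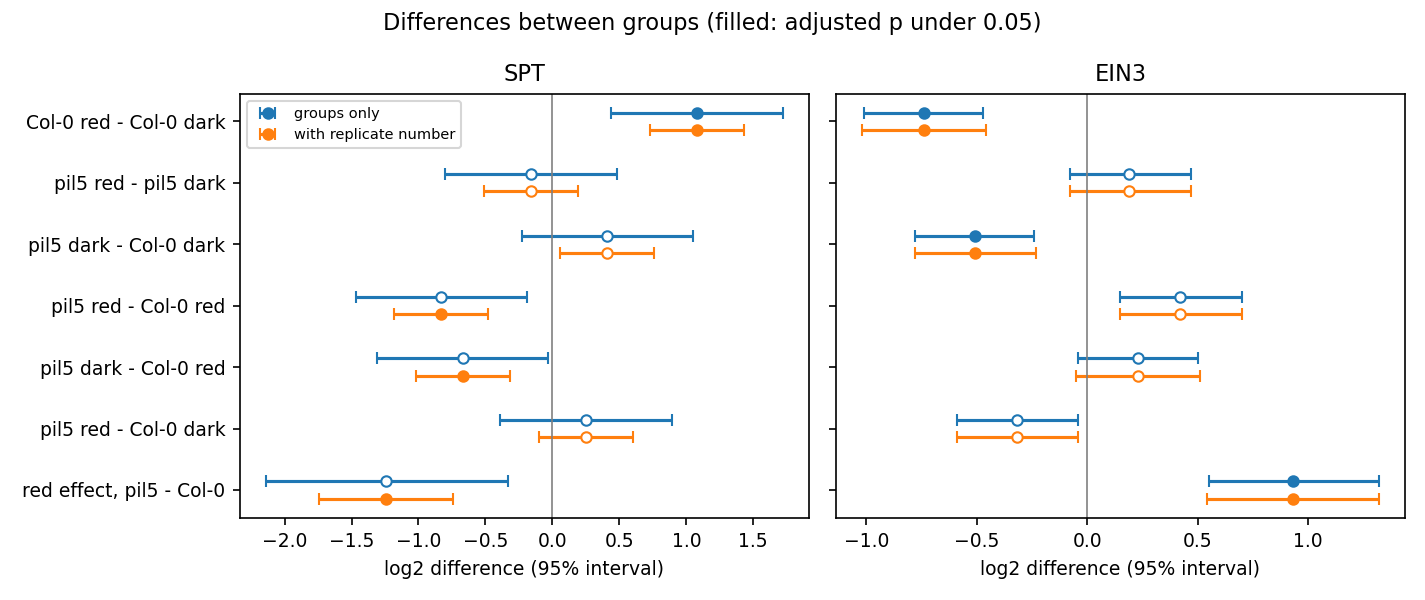
Log2 differences of SPT (left) and EIN3 (right) for the 6 pairs of groups and for the difference of the red effects, with 95% intervals from limma, fitted to groups only (blue) and with a block for the replicate number (orange). Filled points passed at an adjusted p under 0.05; for SPT the block narrows the intervals and adds 3 calls, and for EIN3 both fits call the same 3 comparisons.

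Of the genes around SPT and EIN3, few were measured by probe sets of their own. The 7 lists of bHLH relatives and partners of SPT, EIN3/EIL genes, ethylene perception and signalling, ethylene synthesis, EIN3 targets, gibberellin metabolism and germination regulators held 86 entries, of which 6 were measured. None of the EIN3 target, gibberellin metabolism and germination regulator entries was among them, nor was EBF1, EBF2, EIN2 or EIL1. Of the 6, 1 rose and 1 fell after red in Col-0, where 15.1% of all probe sets passed, and 2 rose and 2 fell with the block, where 26.4% passed. Their median log2 change was 0.15, against 0.00 over all probe sets. In pil5 in the dark 0 rose and 1 fell, where 12.1% of all probe sets passed, and 2 rose and 2 fell with the block, where 23.8% passed. Their median difference was -0.18, against 0.01 over all probe sets.

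ALC (ALCATRAZ), the closest relative of SPT, which acts with it in gynoecium development and sets the zone where the fruit opens, rose after red in Col-0. It read 7.10, 6.83 and 6.79 in Col-0 red, against 5.99, 5.61 and 6.0 in Col-0 dark, with no overlap. The log2 change was 1.04 (SE 0.16, adjusted p = 0.0029, limma), and the call held without any 1 array (adjusted p up to 0.018). Its size was close to that of SPT at 1.08, and the difference between the genes was not tested.

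In pil5, ALC lay near the Col-0 dark level in both lights. It read 5.95, 5.85 and 5.48 in pil5 red, against 5.87, 5.65 and 5.49 in pil5 dark, a log2 change of 0.09 (SE 0.16, 95% interval -0.27 to 0.45, adjusted p = 1, limma). In the dark, pil5 differed from Col-0 by -0.20 (SE 0.16, adjusted p = 0.54). After red, ALC averaged 5.76 ± 0.25 in pil5 red and 6.90 ± 0.17 in Col-0 red (SD, n = 3). It fell by 1.15 in pil5 (SE 0.16, adjusted p = 0.029, limma), where 0.193% of probe sets passed. The red effect in pil5 minus that in Col-0 was -0.95 (SE 0.23, adjusted p = 0.037), where 6.34% of probe sets passed.

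The genotype calls of ALC were sensitive to single arrays in the fit of groups only. The call after red ended without Col-0 dark 1, Col-0 red 1, Col-0 red 2, pil5 dark 2, pil5 red 2 or pil5 red 3 (log2 change from -1.24 to -1.01, adjusted p up to 0.16). The call for the difference of the red effects held only without pil5 red 1 or Col-0 dark 3 and ended without any of the other 10 arrays (adjusted p up to 0.1). With the block both calls held without any 1 array, with adjusted p up to 0.012 after red and up to 0.034 for the difference of the red effects.

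**Figure D4:**
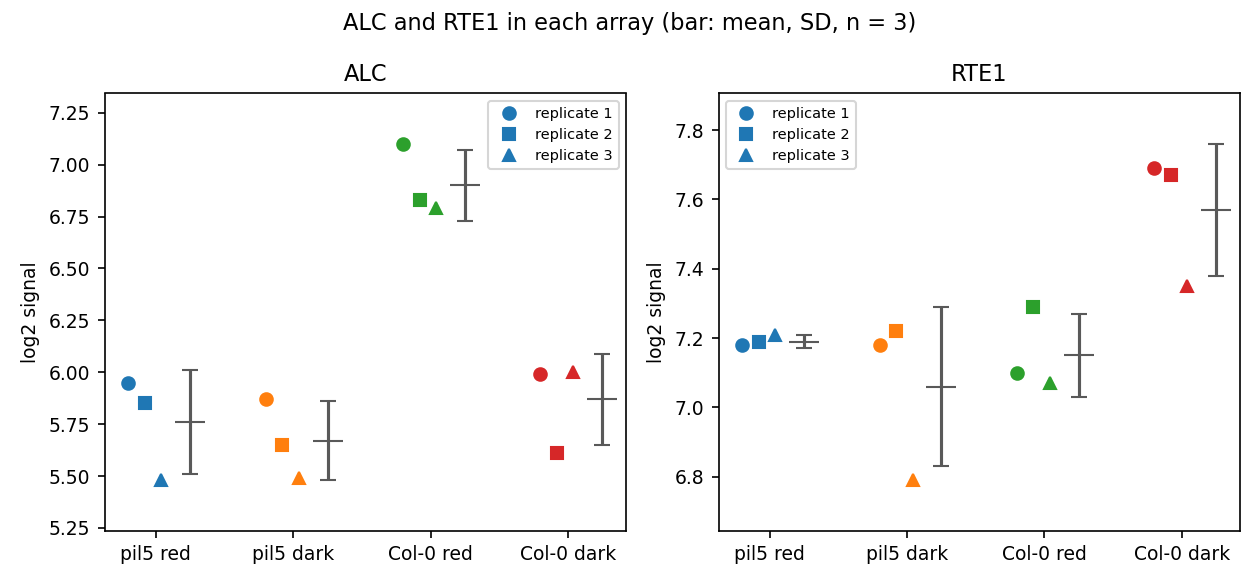
Log2 signal of ALC, a bHLH relative of SPT (left panel), and RTE1, a regulator of the ethylene receptor ETR1 (right panel), in each array by group, with the group mean and SD (n = 3) in grey. ALC is high in Col-0 red (6.79 to 7.10) and at most 6.0 in the other groups, and RTE1 is highest in Col-0 dark (mean 7.57).

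On the ethylene side, RTE1, which promotes the activity of the ethylene receptor ETR1, was lower in pil5 in the dark. It read 7.18, 7.22 and 6.79 in pil5 dark, against 7.69, 7.67 and 7.35 in Col-0 dark. The groups did not overlap, and RTE1 fell by 0.50 (SE 0.13, adjusted p = 0.032, limma), where 12.1% of probe sets passed. The call ended without Col-0 dark 1, Col-0 dark 2 or pil5 dark 3 (adjusted p up to 0.13). After red in Col-0 its change was -0.42 (SE 0.13, adjusted p = 0.059, but 0.014 with the block, where 26.4% of probe sets passed), with means of 7.15 ± 0.12 in Col-0 red and 7.57 ± 0.19 in Col-0 dark (SD, n = 3).

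ETP2, an F-box protein that targets EIN2 for degradation, had positive values in the same comparisons. It read 8.32, 8.42 and 8.30 in Col-0 red, against 7.95, 7.88 and 7.62 in Col-0 dark. The log2 change was 0.53 (SE 0.18, adjusted p = 0.079, and 0.018 with the block). It read 8.34, 8.46 and 8.33 in pil5 dark, above every Col-0 dark array. That difference was 0.56 (SE 0.18, adjusted p = 0.073, and 0.016 with the block). In pil5 red the third array, at 7.79, lay apart from 8.49 and 8.59 in the other two. That array belongs to neither comparison. Without it the values of ETP2 did not change, but both passed (0.53, adjusted p = 0.0042, and 0.56, adjusted p = 0.0043, limma). Without any other 1 array ETP2 passed in neither comparison (adjusted p up to 0.21 and 0.18, limma).

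Of the EIN3/EIL entries, AT5G10120 and AT5G65100 were measured, both unnamed in the supplied tables. AT5G10120 fell by 0.35 after red in Col-0 (SE 0.10, adjusted p = 0.03, limma), to 12.23 ± 0.12 in Col-0 red, against 12.59 ± 0.06 in Col-0 dark (SD, n = 3). This call ended without Col-0 dark 1, 2 or 3 or Col-0 red 1 or 2 (adjusted p up to 0.13). In pil5 in the dark its difference was -0.32 (SE 0.10, adjusted p = 0.054, but 0.034 with the block). For AT5G65100 the values of these comparisons were 0.25 (SE 0.36, adjusted p = 0.78) and 0.49 (SE 0.36, adjusted p = 0.48, but 0.013 with the block). In the ethylene synthesis list only AT1G12010 was measured, at a low signal of 4.31 ± 0.06 in Col-0 red and 4.26 ± 0.02 in Col-0 dark, with a log2 change of 0.06 (SE 0.08, adjusted p = 0.75).

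Other genes with a bHLH name, 6 in the annotation, were picked by name with their values known, so their values are a description without a test. After red in Col-0 the log2 change was 1.02 (SE 0.28) for bHLH115, 0.87 (SE 0.25) for bHLH34 and -0.80 (SE 0.19) for bHLH121. For the others of the 6 it was -0.05 (SE 0.14) for bHLH104, -0.30 (SE 0.13) for ILR3 and -0.01 (SE 0.09) for AT1G22490. The median of the 6 was -0.03 after red in Col-0, against 0.00 over all probe sets, and 0.10 in pil5 in the dark, against 0.01.

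Profiles most like that of SPT were sought among 1550 other probe sets with a symbol, by Pearson r over the 12 arrays. The arrays share groups and replicate numbers, so r is a description of these arrays. Genes chosen for their r with SPT or EIN3 follow the same comparisons by that choice, so their values are given without a test. The 5 closest to SPT were bHLH115 (r = 0.97), ARL (0.97), a relative of the organ size gene ARGOS, ACA.l (0.96), the glucosinolate enzyme UGT74B1 (0.96) and the glycosyltransferase UGT85A7 (0.95). Without the third pil5 red array the 5 values lay at 0.97, 0.96, 0.96, 0.95 and 0.97.

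The 5 genes resembled SPT in the order of the group means. In Col-0 red all of them, like SPT, read highest in replicate 1 and lowest in replicate 3. bHLH115 read 8.72, 8.30 and 7.61 in Col-0 red, against 7.56, 7.11 and 6.90 in Col-0 dark, highest in replicate 1 and lowest in replicate 3 in both groups. SPT itself was lowest in replicate 2 in Col-0 dark (6.66). Over the 5 genes the log2 change after red in Col-0 lay between 0.41 for ARL and 1.02 for bHLH115, with 0.76 for ACA.l, 1.0 for UGT74B1 and 0.79 for UGT85A7. For red in pil5 the 5 genes lay between -0.11 and -0.02.

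The profiles most opposed to SPT were those of RL2 (r = -0.94), a RAD-like MYB gene, SRX (-0.94), the plastid sulfiredoxin, and ATOEP16-4 (-0.93), a plastid outer envelope channel protein. After red in Col-0 the log2 change was -0.88 (SE 0.21) for SRX, -0.43 (SE 0.14) for RL2 and -0.20 (SE 0.11) for ATOEP16-4.

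For EIN3 the 5 closest profiles were APG8H (r = 0.96) and ATG8C (0.95), both ubiquitin-like ATG8 proteins of autophagy, the linker histone HIS1-3 (0.96), UGT72E1 (0.95), a glucosyltransferase of phenylpropanoid aldehydes, and YLMG1-2 (0.95). Their log2 changes lay between -2.96 and -0.86 after red in Col-0, between -2.16 and -0.54 in pil5 in the dark and between 0.07 and 0.47 for red in pil5. The red effect in pil5 minus that in Col-0 lay between 0.94 and 3.30.

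HIS1-3 had the largest log2 changes of these 5 genes. It read 6.54, 7.29 and 6.63 in Col-0 red, against 9.82, 10.40 and 9.13 in Col-0 dark, a log2 change of -2.96 (SE 0.41). In pil5 dark it read 7.55, 8.10 and 7.23, also below every Col-0 dark array (-2.16, SE 0.41). EIN3 had the same order of groups over a range of less than 1 log2 unit. ATG8C had -0.92 (SE 0.13) after red in Col-0 and -0.54 (SE 0.13) in pil5 in the dark.

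**Figure D5:**
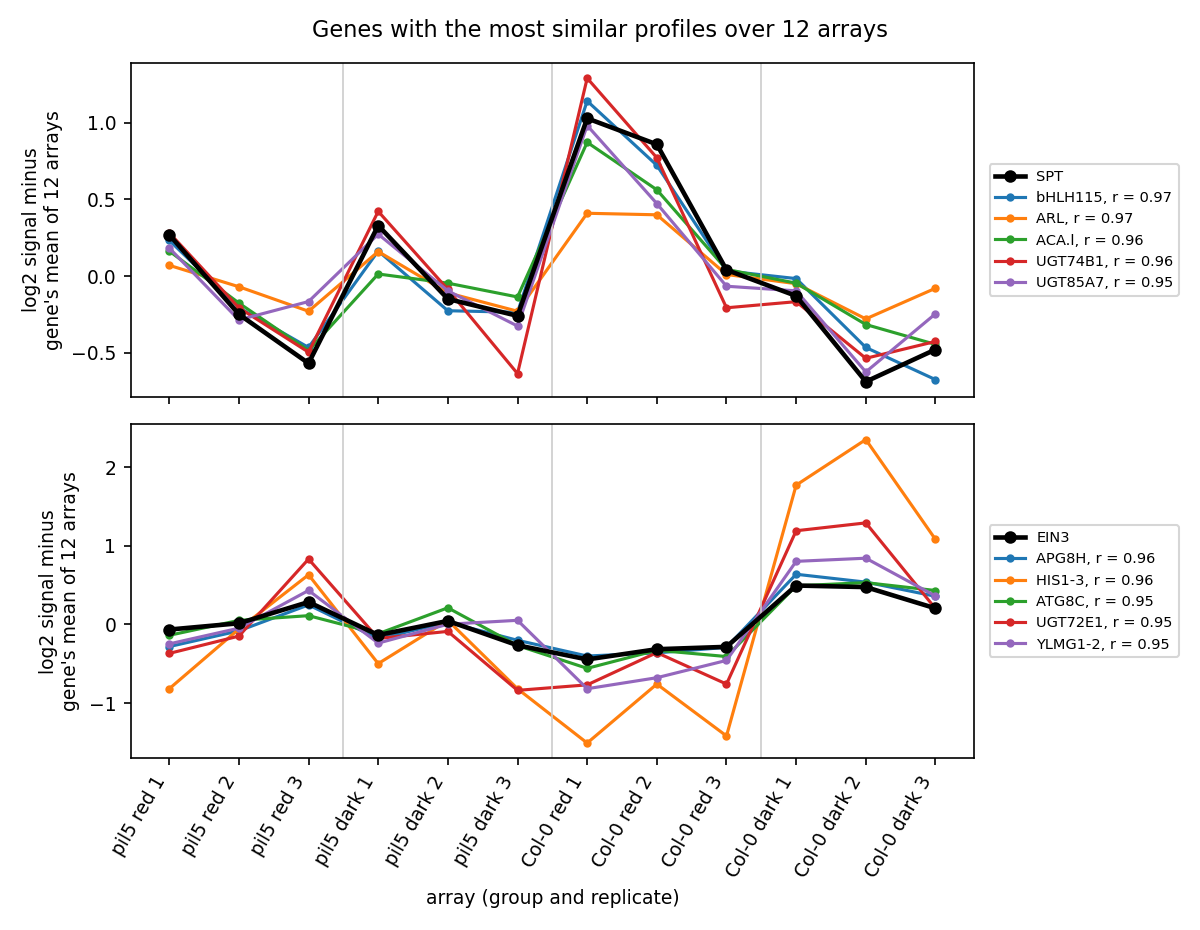
Log2 signal of SPT (top, black) and EIN3 (bottom, black) in each array, minus the gene's own mean over 12 arrays, with the 5 genes of highest Pearson r in colour. The SPT profile peaks in Col-0 red, where replicate 3 is lower than replicates 1 and 2, and the EIN3 profile peaks in Col-0 dark.

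The profiles most opposed to EIN3 were those of ATRER1A (r = -0.93), a protein of retrieval from the Golgi to the endoplasmic reticulum, the small GTPase gene SGP2 (-0.93) and GPDHC1 (-0.93), a cytosolic glycerol-3-phosphate dehydrogenase. After red in Col-0 their log2 changes were 0.47 (SE 0.09), 1.11 (SE 0.25) and 1.93 (SE 0.25). In pil5 in the dark they were 0.34 (SE 0.09), 0.99 (SE 0.25) and 0.97 (SE 0.25). SPT and EIN3 themselves had r = -0.76 over the 12 arrays and -0.74 without the third pil5 red array.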

How the data were processed

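RNA of 12 samples was labelled as biotinylated cRNA and hybridised to 1 Affymetrix array each, as the labels' protocols state. The authors deposited log2 signals between 2.867 and 14.75, with nearly equal quantiles across arrays. MAS5 5.0 and RMA are named, without their roles, per the submitters' processing notes. The values were used as deposited, without 64 control probe sets, which left 22746: 13513 with 1 gene in the supplied annotation, 503 with several and 8730 with none. Names came from the RefSeq table, which matched 13436. No build is stated, so no positions are given. A single limma model (version 3.58.1, R 4.3.3) held all arrays, with 1 mean per group, eBayes and two-sided tests. The number of arrays limits the precision.

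Replicates numbered alike were treated as paired in the differences given by replicate and in the fit with the block. The main fit held group means only and ignored the number. Between groups, their deviations from the mean of the group correlated at r from 0.17 to 0.71, against -0.68 to 0.41 for arrays of different numbers. The deviations cancel out within each group, so positive r for like numbers lowers r for different numbers. The gap between these ranges is therefore partly built in. What the number marks is not in the labels. Values with the number as a block stand beside the others where they change a call. The fit was also run on simulated data drawn independently for each array, without a shift by replicate number. That run therefore does not bear on the shift seen here. Members, lists and tests were chosen with earlier results of these data known. Beyond SPT and EIN3, genes were named as list members with a probe set of their own and as the 5 highest and 3 lowest r. Alternatives were the block, the compared arrays alone, median centring, quantile normalization, a filter on the dimmest 25% of probe sets, eBayes with trend and robust, array weights, leaving out each array and, added after the data were seen, leaving out each array with the block. Figures used Python 3.11.15 and matplotlib 3.10.9.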

Additional observations from a re-analysis of the deposited data

Results flagged for a closer look

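The red effect of SPT, EIN3 and ALC differed between the genotypes by a test of groups only or with the block. Of all probe sets, 6.34% passed for this difference with groups only and 17.5% with the block. For EIN3 the red effect in pil5 minus that in Col-0 was 0.93 (SE 0.17, adjusted p = 0.02, limma), and for ALC it was -0.95 (SE 0.23, adjusted p = 0.037); both calls ended without any 1 of the arrays named for them in the results and held without any 1 array with the block. For SPT it was -1.24 (SE 0.41): red lay below dark in all 3 replicates of pil5 and above dark in all 3 of Col-0. The test of this difference missed the threshold for groups only (adjusted p = 0.1) and passed with the block (adjusted p = 0.0083). Of the other genes of the pathway lists, RTE1 also passed with the block (0.54, SE 0.14, adjusted p = 0.03, limma). It missed for groups only (adjusted p = 0.11, limma).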

How the results depend on the processing

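Of 96 values of SPT and EIN3 under alternatives that keep all arrays compared, 87 kept their direction and their side of the threshold and 9 newly passed. With the replicate block these were SPT after red (-0.83), SPT in pil5 dark against Col-0 red (-0.67) and the difference of red effects of SPT (-1.24), and the block changed no other call of SPT or EIN3. With array weights they were the same 3 of SPT (-1.01, -0.88 and -1.46) and EIN3 after red (0.37), in pil5 dark against Col-0 red (0.34) and in pil5 red against Col-0 dark (-0.45). The lowest weight was 0.176, for pil5 red 3, and the cause was not tested.

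Leaving out 1 array at a time, SPT lay between 0.88 and 1.38 for red in Col-0, between -0.38 and 0.03 for red in pil5, where it changed sign, and between -1.54 and -1.04 for the difference of red effects, whose adjusted p was 0.05, at the threshold, without pil5 red 1 and between 0.051 and 0.24 without any other array. EIN3 lay between -0.60 and -0.44 for pil5 in the dark, between -0.42 and -0.24 for pil5 red against Col-0 dark and between 0.83 and 1.03 for the difference of red effects. With the block as well, SPT lay between -1.02 and -0.64 after red and between -0.86 and -0.49 for pil5 dark against Col-0 red, and EIN3 between -0.62 and -0.42 for pil5 in the dark. Values that changed sign were those of ALC for red in pil5 (-0.01 to 0.23), AT5G65100 for red in Col-0 (-0.12 to 0.56) and ARL for pil5 in the dark (-0.03 to 0.16).

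Among the genes of the pathway lists, calls ended in a fit of only the arrays compared for ALC after red (adjusted p = 0.17) and RTE1 for pil5 in the dark (0.091), and that of RTE1 also with trend and robust (0.052). Probe sets called numbered 6009 with the block and 7549 with array weights against 3443 for red in Col-0, 5406 and 7008 against 2750 for pil5 in the dark, 1880 and 2800 against 44 for pil5 after red, where the compared arrays alone gave 0 and median centring 72, and 3973 and 5242 against 1443 for the difference of red effects. The lowest counts without 1 array were 1587 and 769 for the first pair, without Col-0 dark 2, and 3 and 68 for the second, without Col-0 red 1, and the count for pil5 after red reached 112 without Col-0 red 3.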
